A study of Mus musculus with 2 samples.

Results

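The 9 genes described here, Pf4, Ppbp, Itga2b, Itgb3, Gp9, Gp1ba, Gp1bb, Gp5 and Vwf, are the classical genes of platelets and of megakaryocytes, the marrow cells that shed platelets. They were chosen by name, 9 of the 32285 genes in the count tables, and all 9 were found. The counts came from single-cell RNA-seq of cells from the femurs and tibiae of male INK-ATTAC mice that received no treatment. Cells of 3 such animals, aged 24 months, were combined to give a single sample, labelled as mesenchymal cells. INK-ATTAC mice carry an inducible caspase 8 transgene driven by the p16 promoter, and no mouse without it, no younger mouse and no drug-treated mouse was analysed here. The crushed bone and the marrow were digested, red blood cells were lysed, cells with CD5, B220, CD11b, Gr-1, 7-4 or Ter-119 were depleted on magnets, and viable CD45- cells were sorted. These steps bear on every share of cells below, since red cells and CD45+ blood cells were meant to be removed.

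The platelet surface carries a pair of adhesion complexes that these genes build. GPIb-IX-V, made of the products of Gp1ba, Gp1bb, Gp9 and Gp5, holds von Willebrand factor, and the integrin αIIbβ3, made of the products of Itga2b and Itgb3, binds fibrinogen once the platelet is activated. Pf4 and Ppbp encode chemokines stored in alpha granules, and Vwf encodes von Willebrand factor, which is made in megakaryocytes and in endothelial cells.

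Pf4 and Ppbp lie next to each other on chromosome 5 of GRCm38, Ppbp at chr5:90768518-90770063 and Pf4 at chr5:90772435-90773383, both on the plus strand and 2371 bases apart. Itga2b (chr11:102453297-102470122, minus strand), Itgb3 (chr11:104608000-104670476, plus strand) and Gp1ba (chr11:70639122-70642036, plus strand) share chromosome 11 without being neighbours. Gp9 (chr6:87778072-87779768, plus strand) and Vwf (chr6:125546774-125686679, plus strand) lie far apart on chromosome 6. Gp5 (chr16:30307685-30310779, minus strand) and Gp1bb (chr16:18620317-18622403, minus strand) are on chromosome 16. Gp1bb overlaps Sept5 (chr16:18620502-18629954) on the same strand, so its count is uncertain, although Sept5 itself had 7 UMIs in all in the cells where Gp1bb was high.

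The start regions of 4 members are shown because these genes parted ways outside the megakaryocyte-like cells: the ratio of Ppbp to Pf4 in early erythroid cells overlapped that in megakaryocyte-like cells, while Gp9 and Gp5 changed in opposite directions across erythroid cells. Each window runs from 250 bases before to 50 bases after the RefSeq gene start on GRCm38.p6, 5′ to 3′ on the gene's strand, and capitals mark GATAA, the core read by GATA factors, or its reverse complement TTATC. The windows are chr5:90772185-90772484 (plus) for Pf4, chr5:90768268-90768567 (plus) for Ppbp, chr6:87777820-87778119 (plus) for Gp9 and chr16:30310732-30311031 (minus) for Gp5.
Pf4: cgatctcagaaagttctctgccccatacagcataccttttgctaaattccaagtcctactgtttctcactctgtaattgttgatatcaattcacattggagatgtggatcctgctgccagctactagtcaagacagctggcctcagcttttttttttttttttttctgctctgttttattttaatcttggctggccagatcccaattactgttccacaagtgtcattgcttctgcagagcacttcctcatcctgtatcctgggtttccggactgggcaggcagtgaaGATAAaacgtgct
Ppbp: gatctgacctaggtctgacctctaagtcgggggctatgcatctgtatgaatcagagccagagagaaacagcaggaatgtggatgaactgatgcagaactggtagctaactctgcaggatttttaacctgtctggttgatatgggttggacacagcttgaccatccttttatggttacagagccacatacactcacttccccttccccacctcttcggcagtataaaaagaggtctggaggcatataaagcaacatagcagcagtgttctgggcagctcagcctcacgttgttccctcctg
Gp9: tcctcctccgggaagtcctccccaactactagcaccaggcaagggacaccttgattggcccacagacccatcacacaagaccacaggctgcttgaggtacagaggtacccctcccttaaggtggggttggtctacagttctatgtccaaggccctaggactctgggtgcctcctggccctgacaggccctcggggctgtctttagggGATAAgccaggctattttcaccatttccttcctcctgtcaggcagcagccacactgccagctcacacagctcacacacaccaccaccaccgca
Gp5: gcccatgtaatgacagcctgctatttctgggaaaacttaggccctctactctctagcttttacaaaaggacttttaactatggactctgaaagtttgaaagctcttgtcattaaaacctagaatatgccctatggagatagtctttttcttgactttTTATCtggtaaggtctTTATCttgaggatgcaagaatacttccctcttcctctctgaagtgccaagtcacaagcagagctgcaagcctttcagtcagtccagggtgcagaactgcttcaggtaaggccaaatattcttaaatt

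RefSeq windows were found for 7 of the 9 members, all but Itgb3 and Vwf. GATAA on either strand was present in 4 of these 7, the windows of Pf4, Gp9, Gp1ba and Gp5, against 25.4% of all 32851 windows of the same length. In Gp9 it stood 43 bases before the start, in Pf4 37 bases after it, and Gp5 held it 2 times, 93 and 77 bases before the start. GGAAG, the core read by ETS factors, or its reverse complement CTTCC was in 7 of the 7 windows and in 71.4% of all windows. These matches describe letters in a window and no binding was measured.

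The sample was run in 2 lanes, labelled as replicates, and 10928 of 11056 barcodes were in both. Total UMIs (unique molecular identifiers, counted molecules) per barcode agreed between lanes with r = 0.999858 on the log10 scale, so the lanes hold the same cells and were summed as 1 sample. Squared differences between the lanes came to 0.559 of the summed counts, less than separate draws of molecules would give. The lanes thus share molecules, and a sum over both can count a molecule more than once. With no second sample there is no test between classes of cells, and the intervals below are exact 95% intervals on the lane mean that cover counting error only. Barcodes with 200 genes or more and at most 20% mitochondrial UMIs numbered 9573, with a median of 9857 UMIs over both lanes. Clustering without the 9 members gave 133 megakaryocyte-like cells, 1.39% of the kept cells. In this cluster 14 of 14 megakaryocyte markers such as Treml1, Clec1b and Gp6 were found, and they gave it its name. None of them is a member, but they were not kept out of the clustering, so finding them is no separate check. The other named classes were 2710 early erythroid cells (globin under 1% of UMIs), 3723 later erythroid cells, 1926 LEPR+ stromal-like cells, 142 fibroblast-like cells, 57 endothelial-like cells and 44 plasma cell-like cells. Early and later erythroid cells made up 28.3% and 38.9% of the kept cells in spite of the mesenchymal label, and 838 cells were in no named class.

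All 9 members had their highest level in the megakaryocyte-like cells among these 7 classes, as did 13.7% of the 11807 genes with enough UMIs. The 9 of 9 is a description. Gp1ba and Gp1bb had enough UMIs only through this class, which held 487 of 574 and 734 of 773 of their UMIs. Levels are UMIs per 1000000 (CPM) of summed 3′-end counts. Pf4 led with 37308 UMIs in lane 1 and 38052 in lane 2, a level of 25158 CPM (24905 to 25414), and Ppbp followed with 5713 and 5867 UMIs, 3866 CPM (3767 to 3967). The granule chemokines therefore stood well above the adhesion genes in the same cells.

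The 4 GPIb-IX-V genes were unequal to each other. Gp9 had 1004 and 1083 UMIs in the 2 lanes, a level of 697 CPM (655 to 740). Gp5 had 520 and 563 UMIs, 362 CPM (332 to 393). Gp1bb had 366 and 368 UMIs, 245 CPM (221 to 271), and Gp1ba, the chain that touches von Willebrand factor, had 235 and 252 UMIs, 163 CPM (143 to 184). The intervals of these 4 genes did not overlap each other. In the order of all 9 members, the neighbours Gp9 and Itga2b overlapped, as did Gp1bb and Vwf.

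Of the integrin pair, Itga2b had 987 and 1058 UMIs, 683 CPM (641 to 726), and Itgb3 had 658 and 674 UMIs, 445 CPM (412 to 480). Vwf had 353 and 364 UMIs, 239 CPM (215 to 265). The lanes lay close to each other for every member in these cells, which is no check on the levels because the lanes share cells and molecules.

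A few very large cells set much of these levels. The 4 largest of the 133 megakaryocyte-like cells, with 172737 UMIs or more each, held 76% of the class's Vwf UMIs, 75.5% of Gp5, 70.6% of Itgb3 and 59.3% of Pf4. With the other 129 cells, a choice made after seeing the data, Pf4 was at 15534 CPM (15289 to 15782), Itga2b at 359 (322 to 398), Itgb3 at 198 (171 to 228), Gp5 at 134 (112 to 159) and Gp1ba at 80.5 (63.8 to 100). Gp9, at 528 CPM (484 to 575), and Ppbp, at 3365 (3251 to 3481), moved least. Gp1bb was then at 154 CPM (131 to 181), and its interval overlapped that of Gp5. Vwf was at 87.1 CPM (69.6 to 108), below the 135 CPM of the endothelial-like cells, so that 8 of the 9 members and not Vwf kept their highest level in the megakaryocyte-like cells.

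**Figure D1:**
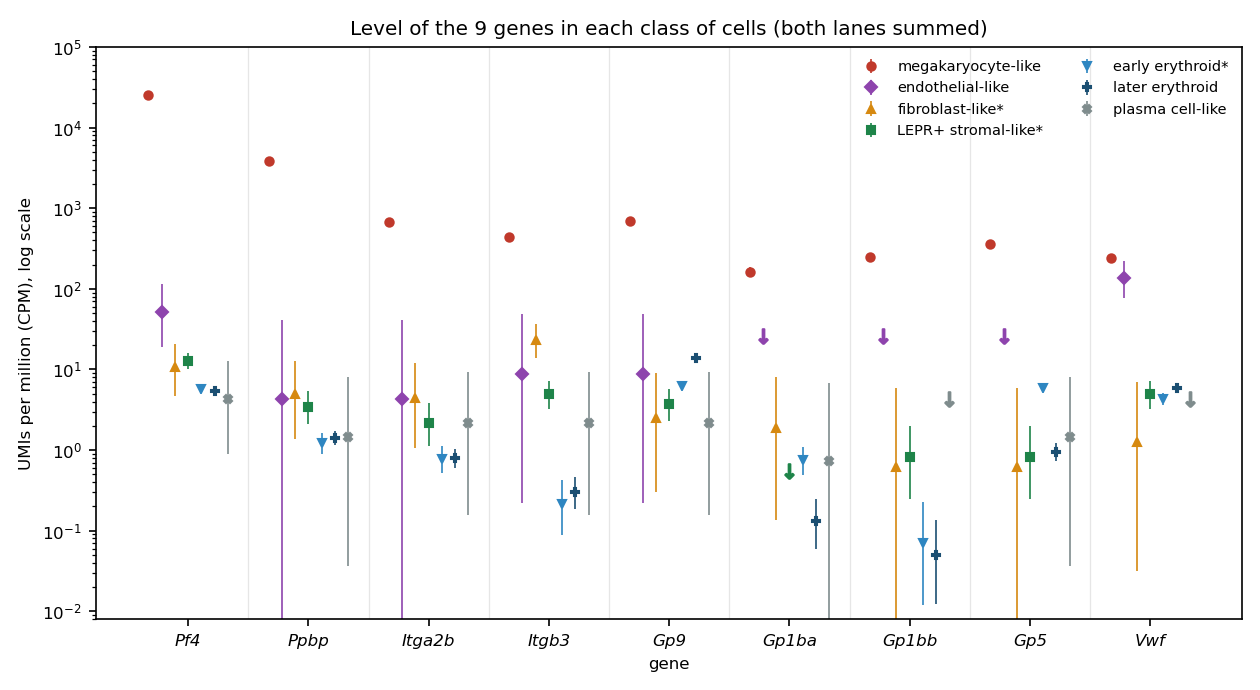
Level of each gene (UMIs per 1000000, log scale) in 7 classes of cells, both lanes summed; bars are exact Poisson 95% intervals, a bar that meets the bottom of the plot runs below it, an asterisk marks classes from which Pf4-rich cells were left out, and a downward arrow stands for no UMI, drawn at the level of 3 counts. The megakaryocyte-like points lie highest for all 9 genes, from 163 CPM for Gp1ba to 25158 CPM for Pf4, and for Vwf another class, the endothelial-like cells at 135 CPM, comes near; without the 4 largest megakaryocyte-like cells Vwf is at 87.1 CPM in that class.

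The cells that carried most of this RNA were 100 Pf4-rich cells, defined as having 10 or more Pf4 UMIs that made up 0.2% or more of their UMIs. Because Pf4 chose them, its level in them is a description. The lowest Pf4 share inside was 0.348% and the highest outside, among cells with 10 or more Pf4 UMIs, was 0.118%, so nothing lay near the limit of share, while 14 barcodes passed the share with 9 Pf4 UMIs or fewer. Of the 100 cells, 95 were megakaryocyte-like and 5 were in other clusters. These cells held 98.1% of all Pf4 UMIs, 96.4% of Ppbp, 96.5% of Gp1bb, 87% of Itga2b, 86.9% of Itgb3 and 85.9% of Gp1ba. They held only 64.6% of Gp5, 46.4% of Gp9 and 36.2% of Vwf, and the erythroid cells held 32.5%, 51.3% and 56.6% of these last 3.

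Against all other kept cells, 9 of 9 members were 2-fold or more higher in the Pf4-rich cells with the interval of the fold above 1, and 15.7% of the 11807 genes tested were. The 9 of 9 is a description: Pf4 set the gate, and Gp1ba and Gp1bb reached the limit of 100 UMIs (lane mean) only through the Pf4-rich cells. Of the 11711 genes with 100 UMIs or more in the other kept cells alone, 15.1% were higher, and 7 members, Pf4 included, were among these genes and higher. The fold was 2840 for Ppbp (2490 to 3270) and 2950 for Gp1bb (1720 to 5510). It was 712 for Itga2b, 708 for Itgb3, 649 for Gp1ba and 195 for Gp5. For Gp9 it was 92.5 (85.1 to 100) and for Vwf 60.6 (53.1 to 69.1).

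From cell to cell the members differed by how often they were seen. Of 100 Pf4-rich cells, 94 had a UMI of Gp9, 91 of Ppbp, 87 of Itga2b and 72 of Itgb3. Fewer had one of Gp1bb (68), Gp5 (63), Vwf (52) and Gp1ba (49), the members at the lowest levels. In each cell's own CPM, Ppbp ran from 0 through a median of 5321 to 39002, Gp9 from 0 through 818 to 8982, and Vwf from 0 through 59 to 4068. At a common depth of 1000 lane 1 UMIs, which 89 of these cells reached, Ppbp was seen in 80.9%, Gp9 in 56.2%, Itga2b in 40.4% and Vwf in 12.4%.

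The 4 chains of GPIb-IX-V were found together in 33 of the 100 Pf4-rich cells (23.9% to 43.1%, exact Clopper-Pearson interval), where the product of their separate shares gives 19.7 cells. After thinning to 1000 UMIs the count was 1 of 89 cells (1.12%), so this share depends on depth. Both integrin chains were found together in 68 cells, against 62.6 from the product of shares. All 8 other members were present in 20 cells, against 5.8 from the product. The product takes no account of depth, which differed widely among these cells. In 84 of the 100 cells at least 4 of the other 8 members were seen.

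**Figure D2:**
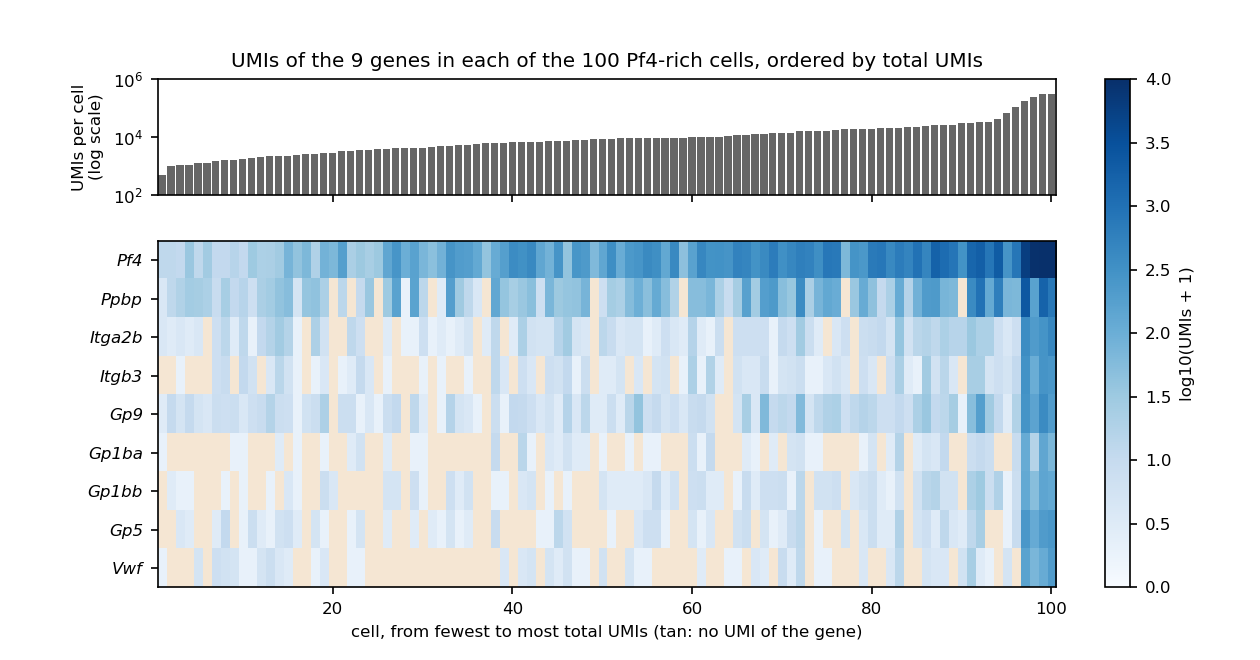
Total UMIs (upper panel, log scale) and UMIs of each gene as log10(UMIs + 1) (lower panel) in each of the 100 Pf4-rich cells, ordered from fewest to most UMIs; tan marks a gene with no UMI in that cell. Ppbp and Gp9 are seen in 91 and 94 cells across the whole range of depth, while Gp1ba and Vwf are missing from 51 and 48 cells, and a few very large cells at the right hold UMIs of all 9 genes.

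The Pf4-rich cells ranged from 500 to 305760 UMIs, and the limit of 10 Pf4 UMIs that chose them bears most on the small ones, so Pf4 and ratios to it are not compared along that range. The 33 cells with the fewest UMIs (500 to 4959) had Ppbp at 11393 CPM, the 34 in the middle at 5052 and the 33 with the most (12999 to 305760) at 5221. Gp9 was likewise at 2184, 793 and 956 CPM, and Itga2b at 1914, 669 and 925 CPM. Gp1ba went from 203 to 215 and 232 CPM, values whose intervals overlapped. The values of the largest group lean on its 4 largest cells. Without those 4 cells, Itga2b over all Pf4-rich cells went from 932 to 593 CPM and Gp1ba from 229 to 145. Gp9 went from 985 to 950 and Ppbp from 5453 to 6007.

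Of 12 genes of platelet cytoskeleton, granule formation and signalling, 6 were higher in the smallest than in the largest group with intervals apart, and the other 6 overlapped, where 3.78% of the 4953 genes with 20 UMIs or more (lane mean) in these 2 groups of cells were higher and 4.36% lower. These counts are a description. The limit of 10 Pf4 UMIs let in small cells only at a higher Pf4 share, and whether this bears on other genes was not tested. The 4 largest cells held most UMIs of the largest group. Among other lists, 1 of 10 platelet receptors with enough UMIs (Clec1b) and 5 of 10 alpha granule genes (Thbs1, F5, F13a1, Clu and Srgn) were higher in the smallest cells, with Selp lower. Of 3 partner integrins with enough UMIs 2 were higher (Itga6 and Itgb1), as was 1 of 2 genes listed for immature cells (Cd9). Of 9 transcription factors of the lineage none was higher, and Zfpm1 and Mef2c were lower. Of the 12 cytoskeleton and signalling genes, Nrgn was at 4165 CPM in the smallest cells and 540 CPM in the largest. Myl9 was at 2026 and 204, and Tubb1, the beta-tubulin of the platelet rim, at 304 and 25.2. Gng11 (4019 and 564), Plek (2544 and 1419) and Fermt3 (1869 and 1102) were the others that were higher, while Rab27b (574 and 858), Cavin2 (811 and 938), Rgs18 (1103 and 949), Rasgrp2 (1160 and 901), Slc35d3 (11.3 and 53.3) and Nbeal2 (0 and 22.4) overlapped. Of 4 proliferation genes Top2a was lower in the smallest cells (56.3 CPM, against 237 in the largest), and Mki67 (146 and 269), Cdk1 (67.5 and 192) and Ccnb1 (33.8 and 142) overlapped. The single largest cell held 14.2% of the UMIs of all Pf4-rich cells; without it Pf4 was at 32193 CPM, Gp5 at 448 and Vwf at 276, and without the 4 largest they were at 27862, 232 and 151 CPM.

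Genes of the platelet programme named in other lists, chosen with earlier results of these data known, were high in the same cells. The share of all 11807 genes that was higher, 15.7%, stands beside each count here. Of 11 platelet receptors 10 could be tested and 10 were higher, but 8 of them reached the limit of UMIs only through the Pf4-rich cells, among them Treml1 (936 CPM, 5120-fold), Clec1b (944 CPM, 2590-fold) and the collagen receptor Gp6 (154 CPM, 1310-fold). Of 10 alpha granule genes 9 could be tested, 3 of them only through the Pf4-rich cells (Mmrn1, Selp and F5), and 8 were higher, such as Mmrn1 (228 CPM, 2490-fold), Selp (173 CPM, 945-fold) and Thbs1 (290 CPM, 39-fold), while Serpine2 was at 502 CPM, 1.96-fold. Of 12 genes of cytoskeleton, granule formation and signalling 10 could be tested, 1 only through the Pf4-rich cells (Slc35d3), and 10 were higher, including Plek (1471 CPM, 1240-fold) and Rab27b (819 CPM, 802-fold).

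The integrin chains that pair with β3 or β1 did not all follow. Of 5 partner integrins 3 were higher, against 15.7% of all genes, with Itga2 testable only through the Pf4-rich cells: Itga6 (229 CPM, 114-fold), the collagen receptor chain Itga2 (68.2 CPM, 96.8-fold) and Itga5 (19 CPM, 2.75-fold). Itgav, which pairs with β3 in many other cells, was at 6.96 CPM in 8 cells (0.832-fold, 0.346 to 1.68), and Itgb1 was at 402 CPM (1.95-fold).

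Transcription factors of the lineage split into those that were higher and those that stayed within 2-fold. Fli1 was 142-fold higher (229 CPM), Mef2c 77.4-fold (586 CPM), Meis1 55.2-fold (76.1 CPM), Gata2 5.12-fold (18.6 CPM) and Nfe2 2.77-fold, so 5 of 10 were higher, against 15.7% of all genes. The other 5 of 10, Gata1, Tal1, Zfpm1, Runx1 and Gfi1b, lay between 0.986-fold and 1.39-fold, and of these Gata1 was at 122 CPM in Pf4-rich and 97.6 CPM in early erythroid cells.

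Of 4 proliferation genes Mki67 (0.228-fold) and Top2a (0.337-fold) were lower, as were 17.1% of the 11807 genes tested, and Cdk1 and Ccnb1 were at 0.86-fold and 0.955-fold. Of 4 genes listed for immature cells, Cd34 (8.94-fold) and Cd9 (100-fold) were higher and Kit (0.39-fold) and Myb (0.333-fold) lower. Cd9 was at 2325 CPM in 95 Pf4-rich cells and was also seen in 1097 LEPR+ stromal-like cells, so its level is no sign of immature cells.

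Markers of other cells were measured in the Pf4-rich cells as well. Of 12 endothelial markers 7 had a UMI, at 190 CPM in sum, and Cdh5, Emcn, Ptprb, Cav1 and Cldn5 were at 0. Esam (70.1 CPM in 33 cells, 110-fold), Pecam1 (42.2 CPM in 26 cells, 23.3-fold) and Flt1 (12.1 CPM in 6 cells, 7.77-fold) were higher than in the other kept cells. Of 8 macrophage markers 3 had a UMI and Adgre1, Csf1r, C1qa, C1qc and Cd14 were at 0, while Lyz2 was seen in 65 cells and was 216-fold higher. Of 14 erythroid markers 14 had a UMI, at 2130 CPM in sum, and 13 of them were lower than in the other kept cells. Of 12 LEPR+ stromal markers 12 had a UMI, at 308 CPM in sum with 11 lower, and of 13 fibroblast markers 12 had one, at 603 CPM in sum with 3 higher and 2 lower. Of all 11807 genes tested 15.7% were higher and 17.1% lower, and the fibroblast counts lie near these shares. What part these markers have in the members' values was not tested.

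The 38 megakaryocyte-like cells that were not Pf4-rich were of another make-up. Pf4 was at 82.9 CPM in them, in 14 of 38 cells, and 20 of 38 had none of the other 8 members. Gp9 was at 24.3 CPM, Vwf at 13.3 and Gp1ba at 6.63. Neutrophil markers summed to 9700 CPM in these cells, plasma cell markers to 5884 CPM and blood progenitor markers to 2650 CPM. Yet 3 or more markers of these lists were seen in only 2, 20 and 5 of the 38 cells. Erythroid markers (1991 CPM in sum) reached 3 or more in 37 cells, megakaryocyte markers (625 CPM) in 18 and B cell markers (626 CPM) in 12. Of each member's UMIs in the class, 95.8% to 99.9% were in the Pf4-rich cells, on which the class levels above rest.

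Outside the megakaryocyte-like and Pf4-rich cells the members differed in how many cells held them. Gp9 was seen in 1413 such cells, Pf4 in 1009, Vwf in 796, Gp5 in 339, Ppbp in 225, Itga2b in 167 and Itgb3 in 109, and Gp1ba and Gp1bb in 55 and 18. Pf4 was seen in 318 of 2710 early erythroid cells (11.7%), in 110 of 1926 LEPR+ stromal-like cells (5.71%) and in 5 of 44 plasma cell-like cells (11.4%); the median depths were 10803, 5139 and 30296 UMIs. At 1000 UMIs per cell these shares were 1.14% in early erythroid, 1.23% in stromal and 0 of 44 in plasma cell-like cells, which allows a share of cells with a UMI of up to 6.82%. In later erythroid cells it was 0.541% and in megakaryocyte-like cells 75.4%. Droplets also take up RNA that floats free in the suspension, and barcodes without cells, which would measure it, were not analysed here; how much of these counts such RNA made up was not tested.

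Pf4 counts per cell differed little with depth among the smaller erythroid cells. They were 0.0388 UMIs per cell (lane mean) in cells with fewer than 2000 UMIs, 0.0296 at 2000 to 5000 and 0.0458 at 5000 to 15000, and then 0.071 and 0.148 above 15000 and above 40000. Its level therefore went from 56.3 CPM (15.4 to 144) down to 15.7, 10.5, 5 and 4.93 CPM. Gp9 per cell was instead higher at each step above 2000 UMIs, going from 0.0289 to 0.0978, 0.192 and 0.283, and its level stayed between 9.46 and 28.2 CPM. Vwf per cell went the same way, from 0.0119 to 0.148, at 4.95 to 8.22 CPM.

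**Figure D3:**
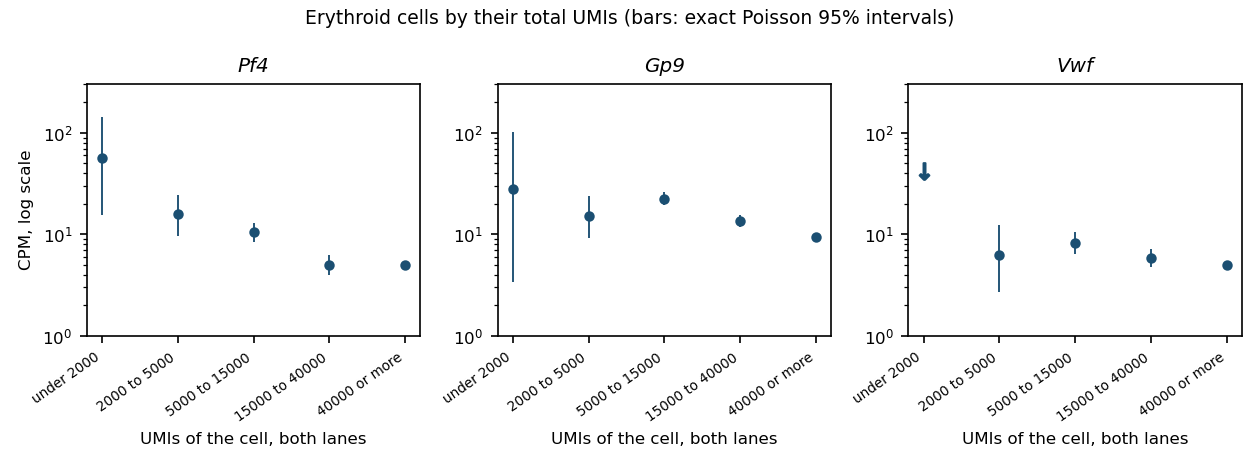
Level (UMIs per 1000000, log scale) of Pf4, Gp9 and Vwf in erythroid cells grouped by their total UMIs over both lanes, Pf4-rich cells left out; bars are exact Poisson 95% intervals and the arrow stands for no UMI, drawn at the level of 3 counts. Pf4 runs from 56.3 CPM in the smallest cells down to 4.93 in the largest, while Vwf stays between 4.95 and 8.22 CPM from 2000 UMIs upward.

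Each member was then set against Pf4 in the same cells. In megakaryocyte-like cells there were 154 Ppbp UMIs per 1000 Pf4 UMIs (149 to 158), 27.7 of Gp9, 14.4 of Gp5 and 9.51 of Vwf. In early erythroid cells there were 191 of Ppbp (134 to 265), an interval that overlapped, with 19 of its 86 UMIs in a single cell. Gp1bb, at 11.1 (1.83 to 35.9) against 9.74, overlapped as well, and so did Itgb3, at 35.5 (15.1 to 71.1) against 17.7. Without the 4 largest megakaryocyte-like cells the class had Itgb3 at 12.7 (11 to 14.7), apart from the early erythroid interval, so that 6 members lay above. Gp5 was then at 8.63, Vwf at 5.6 and Ppbp at 217 in the class.

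With all megakaryocyte-like cells kept, the other 5 of 8 members lay above the megakaryocyte-like ratio in early erythroid cells with intervals apart. So did 98.1% of the 11806 genes. Gp9 was at 980 per 1000 Pf4 UMIs (810 to 1.19e+03), Gp5 at 911 (751 to 1.11e+03) and Vwf at 676 (547 to 834). Itga2b was at 126 (82.4 to 187) and Gp1ba at 118 (75.4 to 176). Since nearly all genes lay above, the count of members above is no result about the members.

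In later erythroid cells 7 of 8 members were above (98.2% of genes), with Gp9 at 2.53e+03 and Vwf at 1.09e+03, and the exception was Gp1bb at 9.31. In LEPR+ stromal-like cells 7 of 8 were above (99% of genes), with Gp1bb at 55.6, Itgb3 at 356 and Vwf at 328. Without the Pf4-rich cell among these stromal cells 6 of 8 were above.

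**Figure D4:**
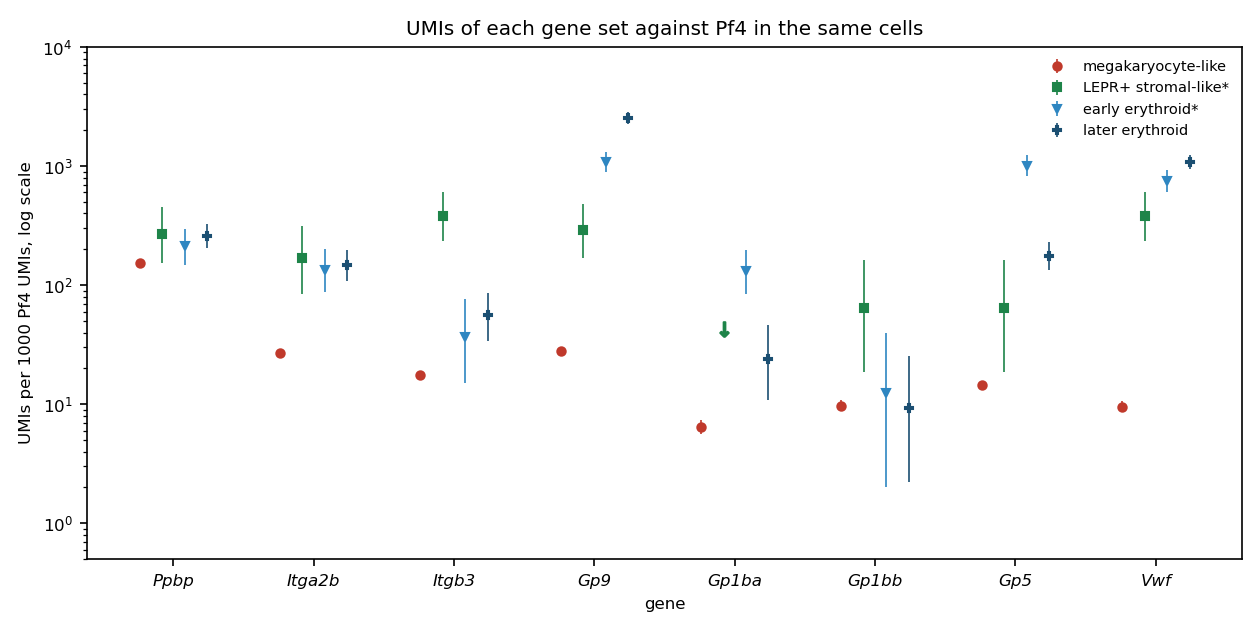
UMIs of 8 genes per 1000 Pf4 UMIs (log scale) in megakaryocyte-like, LEPR+ stromal-like, early erythroid and later erythroid cells; bars are exact 95% intervals, an asterisk marks classes without Pf4-rich cells and the arrow stands for no UMI, drawn at the level of 3 counts. The intervals of Ppbp in early erythroid cells and of Gp1bb in both erythroid classes overlap the megakaryocyte-like ones. Ppbp in later erythroid cells lies above, at 259 (205 to 325), and Gp9, Gp5 and Vwf in early erythroid cells lie far above.

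Early erythroid cells held Gp9 at 6.26 CPM (5.46 to 7.14; 218 and 224 UMIs in 294 cells), Gp5 at 5.82 CPM (5.05 to 6.67; 205 and 206 UMIs in 229 cells) and Vwf at 4.32 CPM (3.66 to 5.06; 141 and 164 UMIs in 207 cells). These UMIs were spread over many cells: the highest cell had 6 of Gp9, 14 of Gp5 and 6 of Vwf. Only 1224 of the 2710 cells lay outside clusters 0 and 4, which were led by Gm26917 and Lars2. Cluster 4 had a median of 11.9% mitochondrial UMIs. Those 1224 cells had a median of 51444 UMIs, against 10803 in all 2710. Gp9 was at 3.96 CPM in them, Gp5 at 5.96, Pf4 at 4.41 and Vwf at 3.31. Itga2b, which also marks early blood progenitors, was at 0.807 CPM (0.538 to 1.16) in 45 of 2710 cells, a log2 difference of -9.73 (-10.32 to -9.19) from the megakaryocyte-like cells and of -8.80 without the 4 largest of those. Gp1bb had 5 UMIs in all of the 2710 cells.

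Pairs of members in single early erythroid cells were counted in the same way. Gp9 and Gp5 met in 19 of 2710 cells, against 24.8 from the product of their shares, and Gp9 and Vwf met in 23, against 22.5. Pf4 met Gp9 in 43 cells, against 34.5, Gp5 in 40, against 26.9, and Vwf in 38, against 24.3. Gp5 and Vwf met in 29 cells, against 17.5. The product takes no account of depth, which ran from 502 to 157480 UMIs in these cells. At 1000 lane 1 UMIs each of these pairs met in 0 or 1 of 2630 cells, too few to compare. At least 4 of the 8 other members were seen in 3 of 2710 cells, where the depth was not matched to that of the Pf4-rich cells, and no early erythroid cell held a UMI of all 4 chains of GPIb-IX-V.

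Along erythroid maturation, read as the share of globin UMIs in a cell, the members went different ways. Gp9 rose from 4.14 CPM below 0.5% globin to 10.8, 11.8, 14.6 and 17.2 CPM in cells at 0.5% to 1%, 1% to 2.5%, 2.5% to 6% and 6% or more. Gp5 went from 7.31 to 2.59, 1.14, 0.723 and 1.09 CPM, and Gp1ba from 0.849 to 0.536, 0.134, 0.118 and 0.156 CPM. The 2 chains that sit in the same platelet complex, Gp9 and Gp5, were thus highest at opposite ends.

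Between cells with 6% globin or more and cells under 1%, 7 of 9 members had enough UMIs (20 or more over both groups, as the mean of the lanes) to be tested, all but Itgb3 and Gp1bb. Gp9 was higher by 2.75-fold (2.24 to 3.38) and Ppbp by 2.14-fold, where 2.79% of genes were 2-fold or more higher. Gp5 was at 0.188-fold and Gp1ba at 0.208-fold, where 26.8% of genes were 2-fold or more lower. Pf4 (1.43-fold), Itga2b (1.1-fold) and Vwf (1.66-fold) stayed within 2-fold.

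A single cell decided the Ppbp value. This later erythroid cell, with 77219 UMIs of which 6.87% were globin, held 91 Pf4 and 39 Ppbp UMIs, at least 1 UMI of each other member and 13 of the 14 megakaryocyte markers. Without it and without the Pf4-rich early erythroid cell, Ppbp was at 0.574 CPM in cells with 6% globin or more and at 0.472-fold, and Pf4 was at 0.763-fold. Gp9 was then still at 2.71-fold, Gp5 at 0.135-fold, Gp1ba at 0.139-fold and Vwf at 1.65-fold. With clusters 0 and 4, led by Gm26917 and Lars2, left out in addition, Gp9 was at 4.06-fold and Vwf at 2.18-fold.

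**Figure D5:**
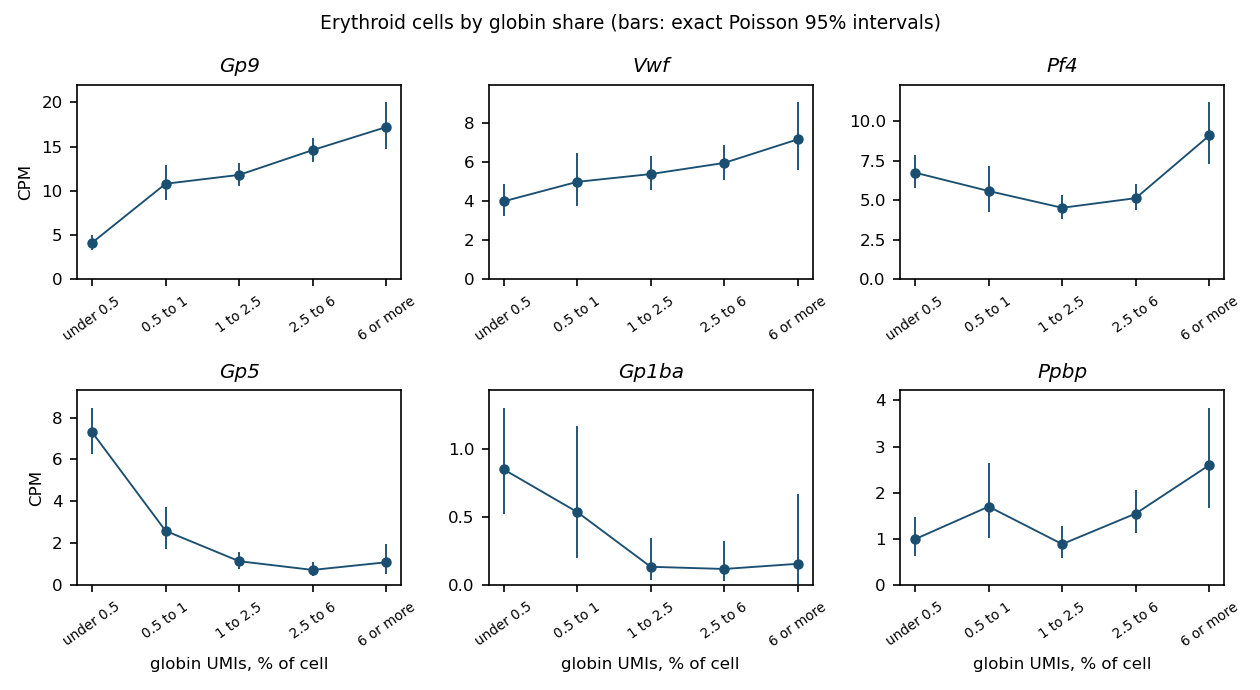
Level (UMIs per 1000000) of 6 genes in erythroid cells grouped by the share of globin among their UMIs; bars are exact Poisson 95% intervals. Gp9 climbs from 4.14 to 17.2 CPM while Gp5 goes from 7.31 to 1.09; the last points of Pf4 and Ppbp include the single cell with 91 Pf4 UMIs, without which they are at 4.39 and 0.574 CPM.

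Vwf is also made in endothelial cells, and its level was measured there. No cluster was named endothelial, and 57 endothelial-like cells were taken by having 4 or more of 12 endothelial markers, none of them a member; Pecam1 was at 1110 CPM in 55 of them and Cdh5 at 966 CPM. They lay in the clusters named LEPR+ stromal. Stromal markers summed to 6103 CPM in them, with 3 or more in 29 cells and Cxcl12 at 4401 CPM in 49 cells. Vwf had 14 and 17 UMIs in the 2 lanes there, a level of 135 CPM (76.3 to 221) in 9 of 57 cells, and the highest cell had 7 UMIs. This was 31.3-fold the level in early erythroid cells (17.3 to 52.8) and below that in megakaryocyte-like cells by a log2 difference of -0.83 (-1.66 to -0.10). That difference rested on the largest megakaryocyte-like cells: it was -0.49 (-1.34 to 0.24) without the single largest, -0.31 (-1.16 to 0.43) without the 2 largest and 0.63 (-0.25 to 1.42) without the 4 largest, where the direction turned. As a mean of each cell's own CPM it was -1.38. With 3 or more markers (61 cells) the difference was -0.91 and with 5 or more (52 cells) -0.76. At a finer clustering that names an endothelial cluster of 214 cells it was -2.27.

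Of the GPIb-IX-V chains, 3 were not detected in these cells. Gp1ba, Gp1bb and Gp5 had no UMI in 57 cells, which allows a level of up to 26.1 CPM each, taken as 3 counts. Pf4 was at 52.2 CPM (19.2 to 114) in 9 of the 57 cells, as many as held Vwf, 3.19-fold the level in LEPR+ stromal-like cells (1.14 to 7.21) and 8.18-fold that in early erythroid cells (2.97 to 18.1). Depth differed between these classes, and in LEPR+ stromal-like cells with 2000 to 5000 UMIs Pf4 was at 19.9 CPM (13.3 to 28.7). Gp9 and Itgb3 were at 8.71 CPM each, and Ppbp and Itga2b at 4.35 CPM, 1 UMI each. The cells were shallow, with a median of 3312 UMIs.

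In the stroma the members were low. Among 1925 LEPR+ stromal-like cells without the Pf4-rich one, Pf4 was at 12.8 CPM (10 to 16.2), Itgb3 at 4.92 (3.24 to 7.16), Vwf at 4.92, Gp9 at 3.74, Ppbp at 3.46 and Itga2b at 2.19. Gp1bb and Gp5 were at 0.82 CPM, and Gp1ba had no UMI, which allows up to 0.547 CPM, again as 3 counts. The Pf4-rich cell left out held 39 Pf4, 37 Ppbp and 27 Itga2b UMIs together with 12 Lepr and 115 Cxcl12 UMIs.

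Fibroblast-like cells had Pf4 at 557 CPM, and at 10.6 CPM (4.72 to 20.5) without 2 Pf4-rich cells that held 428 and 471 Pf4 UMIs. Itgb3 in the remaining 140 cells was at 23.1 CPM (13.8 to 36.3), in 22 of them, 4.7-fold the level in LEPR+ stromal-like cells (2.45 to 8.81). Its other partner chain Itgav was seen in 834 LEPR+ stromal-like cells at 147 CPM, while Itga2b was seen in 16.

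Over the 16 clusters, the genes closest to Pf4 by Pearson's r of log2(CPM + 1), members aside, were Tesc (0.972), Alox12 (0.969), Gmfg (0.967), Serpinb1a (0.965) and Clec1b (0.960). For Itga2b they were Serpinb2 (0.956), Mmrn1 (0.955), Dok2 (0.953), Plek (0.952) and Tnfaip8 (0.945). For Vwf they included Mdm1 (0.956), Nrgn (0.915), S100a8 (0.888) and Ms4a3 (0.882). Among members, Ppbp (0.976) and Gp1bb (0.961) were closest to Pf4 and Gp9 (0.690) farthest. These values are descriptions over 16 points from 1 sample that share libraries and differ in depth. How much of each rests on the megakaryocyte-like cluster alone was not tested.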

How the data were processed

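The authors sorted the cells, made 10x Chromium 3′ libraries and deposited, lane by lane, unnormalized counts of UMIs for each gene in each called cell. The submitters' processing notes name Cell Ranger, R 4.0.3, Seurat 4.0 and mm10. Software version 3.0.2 stands in the header of the counts, but the methods give a different one. Nearly all gene IDs (32158 of 32285) were in GENCODE M21, from which coordinates were taken, and start regions came from RefSeq (GRCm38.p6).

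The lanes were added up barcode by barcode. Cells with under 200 genes or over 20% mitochondrial UMIs were left out. They were clustered in R 4.3.3 (Seurat 5.3.0, sctransform 0.4.2) at resolution 0.8 on 2993 variable genes (the top 3000 less the 7 members among them), and clusters were named from marker lists. Python 3.11.15 with scipy 1.17.1 gave sums and exact intervals (Poisson for levels, conditional binomial for ratios, Clopper-Pearson for shares). The highest level a count of 0 allows was taken as 3 counts. A gene was called higher or lower at 2-fold or more with an interval apart from 1, given 100 UMIs or more as the mean of the lanes (20 for the globin comparison and the size groups of Pf4-rich cells). Scripts were tested on simulated counts. Scrublet in scanpy 1.11.5 called 2.04% of cells doublets in lane 1 and 2.01% in lane 2, which were kept.

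The genes named are the 9 members, every gene of lists of receptors, granule cargo, cytoskeleton, integrins, transcription factors, proliferation and immature cells, and the 5 genes closest to Pf4, Itga2b and Vwf over clusters. Some genes that these rules name are not reported here. The members and lists were chosen with earlier results of these data known. The endothelial-like definition, the removal of the cell with 91 Pf4 UMIs and that of the largest cells were chosen after seeing the data. Filters, clustering settings, doublets, gates, depth and lanes were varied.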

Additional observations from a re-analysis of the deposited data

Results flagged for a closer look

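Barcodes with over 20% mitochondrial UMIs were used in no comparison. In these 1482 barcodes, of median depth 2441 UMIs, Pf4 was at 48.6 CPM (40.6 to 57.9), with 123 and 132 UMIs in the 2 lanes, above the level that a count of 0 allows. It was seen in 90 barcodes, of which 3 passed the limits for Pf4-rich cells, and the highest barcode held 77 UMIs. Ppbp was at 12.8 CPM, Gp9 at 8.77 CPM and Vwf at 5.34 CPM in the same barcodes.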

How the results depend on the processing

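No paired analysis was possible because the lanes hold the same cells and there is only 1 group. Of 109 alternatives computed over 8 results, 104 stayed within the counting interval or within 1.5 times the count. The log2 difference of Vwf between endothelial-like and megakaryocyte-like cells was -2.27 at resolution 1.2, where 214 cells were named endothelial; the cause was not tested. The share of Pf4-rich cells with all 4 chains of GPIb-IX-V was 1.12% at 1000 UMIs per cell and 2.7% at 2000, by construction from fewer UMIs. Without the 4 largest megakaryocyte-like cells the Vwf difference turned to 0.63, that of Itga2b in early erythroid cells was -8.80 and 8 members kept their highest level in the class; without the 1 or 2 largest the Vwf difference was -0.49 or -0.31. These settings were chosen after seeing the data. Resolution 0.4 gave no megakaryocyte-like cluster. From either lane alone there were 131 to 133 megakaryocyte-like and 90 to 91 Pf4-rich cells, the GPIb-IX-V share was 24.4% to 26.4% and the Vwf difference -0.95 to -0.72, and 6 to 7 members lay above their megakaryocyte-like ratio to Pf4 in stromal cells. With the 95 megakaryocyte-like cells that were also Pf4-rich, the Vwf difference was -1.32 and that of Itga2b in early erythroid cells -10.18. Low counts outside the megakaryocyte-like cells, and 1 pooled sample, limit every value.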

Other observations

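Ptprc, which encodes the CD45 used to sort the cells, and the other genes named here were chosen after their values were seen. Ptprc had 17 and 19 UMIs in the 2 lanes in the 100 Pf4-rich cells, 16.7 CPM (9.9 to 26.4) in 11 cells. In the 38 megakaryocyte-like cells that were not Pf4-rich it was at 138 CPM (106 to 177) in 20 cells, and in early erythroid cells at 4.1 CPM (3.46 to 4.83). Those 38 cells also held the granulocyte genes Elane (3380 CPM in 8 cells), Prtn3 (3179 CPM in 10 cells) and Mpo (2534 CPM in 9 cells), and the B lineage gene Cd79a (205 CPM in 15 cells). In the Pf4-rich cells Mpo and Cd79a had no UMI, Elane had 1 and 2 UMIs in a single cell, and Prtn3 had 7 and 7 UMIs in 10 cells (6.5 CPM). Lyz2 was at 321 CPM in 65 Pf4-rich cells and at 332 CPM in 15 of the 38.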
